A study of Bubalus bubalis with 36 samples.

Results

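Adipose depots of the chest were compared with adipose depots of the caudal trunk in buffaloes (Bubalus bubalis) by small RNA sequencing, which reads microRNAs (miRNAs), short RNAs that repress messenger RNAs. The chest side was the mean of subcutaneous fat over the sternum (SSAT) and pericardial fat around the heart (PCAT). The caudal side was the mean of inguinal subcutaneous fat (IAT) and perirenal fat around the kidney (PRAT). Each side therefore held 1 subcutaneous and 1 visceral depot, chosen by the depot and animal number in the sample titles. These 4 depots gave 24 of the 36 libraries of the series, 12 per side and 6 per depot, and the same 6 animals supplied every depot. No animal was treated. All were weaned at an age of 3 months, went onto a fattening regime at 15 months and were slaughtered at 20 months, and the labels give no sex or breed. The comparison asks which miRNAs differ between these chest and caudal depots on average over both layers. A large difference in 1 layer alone can therefore give a call. With 1 depot per layer and side, position along the body axis cannot be told apart from other traits of these 4 depots. The p-values measure the spread between the 6 animals, not between depots.

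Position along the axis is written in animal cells by the HOX genes, transcription factor genes that lie in 4 clusters and are active in an order that follows the axis. The clusters also carry miRNA genes. Those of the miR-196 family lie among HOX genes of more posterior expression and repress HOX messages, and those of the miR-10 family lie among HOX genes of more anterior expression. Adipose depots keep depot-specific HOX expression in the adult, and miR-196a is known in mice for promoting beige fat cells by repressing Hoxc8.

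Library totals ran from 9484589 to 13920998 counts. Of the 1682 features counted, 619 passed the filter on low counts, 372 of them with bovine miRNA names and 247 candidate loci that are known only by an identifier. Candidate loci took 23.1% of the counts. Levels are given per 1000000 counts (CPM) after scaling by TMM, a factor that corrects for differences in library composition. These factors were 0.774 to 0.962 in sternal, 1.06 to 1.27 in pericardial, 0.834 to 1.16 in inguinal and 0.928 to 1.22 in perirenal libraries. Fitted differences are on the log2 scale, chest minus caudal, ± SE, from edgeR's quasi-likelihood test with animals as blocks. A feature was called at a Benjamini-Hochberg adjusted p under 0.05 over all 619. Levels come from whole tissue, in which fewer cells of a type and less of a miRNA per cell cannot be told apart.

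Few miRNAs were called between chest and caudal fat, and HOX-cluster miRNAs led them. Of 619 features 10 were called (1.62%), 9 lower in the chest (1.45%) and 1 higher (0.162%), and 109 had an unadjusted p under 0.05 (17.6%). The 9 lower ones were miR-196a, miR-196b, miR-10b, miR-10a, miR-6715, miR-3431, miR-885, miR-12003 and the candidate locus NC_059158.1_6728. The higher one was miR-105a. The median difference of all features was −0.04. Leaving out 1 animal or library gave 3 to 21 calls: 3 to 5 without animal 2, 4 or 5, 16 without animal 6, 4 to 6 without SSAT4, IAT3, PCAT1 or PRAT1, and 21 without SSAT6. miR-196a, miR-196b and miR-10b were called in each of these 30 fits. Of the 10, 8 had the same sign in the subcutaneous and the visceral layer. Between pericardial and perirenal fat alone 8 were also called (3.88% of all features), and between sternal and inguinal fat alone 1, miR-196a (0.162% of all). The comparison is the mean of the 2 layers, so its calls are selected towards equal signs and large layer differences. These counts are therefore no separate evidence that the layers are alike.

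Library names in the sample descriptions hold a letter, A or B, and no label explains it. Letter A stood on 2 pericardial and 3 perirenal libraries and on no subcutaneous one, so that a chest to caudal or a layer value within letter A could not be had. Between the pericardial and perirenal libraries of letter A, fitted without animals as blocks, miR-196a was called (−8.11, adjusted p = 0.0190) and miR-196b (−6.98), miR-10a (−3.01) and miR-10b (−2.94) were not. Within letter B 3 features were called, miR-196a (−6.46), miR-196b (−4.91) and miR-10b (−1.26). With the letter as a covariate 8 were called, all among the 10.

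miR-196a was the most unequal miRNA between the sides. Sternal libraries held 9.38 to 28.4 CPM of it (median 19.05) and pericardial libraries 0.0617 to 1.74 CPM (median 0.591, from 1 to 26 counts). Inguinal libraries held 176 to 559 CPM (median 336) and perirenal libraries 132.2 to 354 CPM (median 222.8). All 12 chest libraries lay below all 12 caudal libraries, and miR-196a was the only one of the 619 features (0.162%) whose sides did not overlap. Chest less caudal fat was −6.31 ± 0.44 (adjusted p = 3.81e-09), with single animals at −7.23 to −5.15, so that 6 of 6 had less miR-196a in the chest. The gap stood in both layers: −4.26 ± 0.56 between sternal and inguinal fat (adjusted p = 1.76e-04) and −8.37 ± 0.69 between pericardial and perirenal fat (adjusted p = 5.13e-08). It was larger in the visceral layer, since the difference of the layers, sternal minus inguinal less pericardial minus perirenal, was 4.11 ± 0.75 (adjusted p = 0.00179).

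miR-196b, its close relative, was far more abundant and showed its gap mainly in visceral fat. Pericardial libraries held 6.74 to 34.0 CPM (median 10.1) and perirenal libraries 1584 to 4681 CPM (median 2450.5). Sternal libraries held 456 to 3249.5 CPM (median 932) and inguinal libraries 1808 to 5301 CPM (median 2653). All pericardial libraries lay below all perirenal ones, while the sternal library of animal 2, the highest of its depot, lay inside the inguinal range. The chest to caudal difference was −4.76 ± 0.34 (adjusted p = 3.81e-09, lower in 6 of 6 animals). Between pericardial and perirenal fat it was −7.76 ± 0.53, and between sternal and inguinal fat −1.76 ± 0.43, which missed the threshold (adjusted p = 0.0680, lower in 5 of 6 animals). The layers differed by 6.00 ± 0.61. Reads of miR-196a and miR-196b can be divided between the near-identical pair by counting. Summed, the pair differed by −4.83 ± 0.34 between the sides (adjusted p = 5.53e-09) and by −1.86 ± 0.43 between sternal and inguinal fat (adjusted p = 0.0807).

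**Figure D1:**
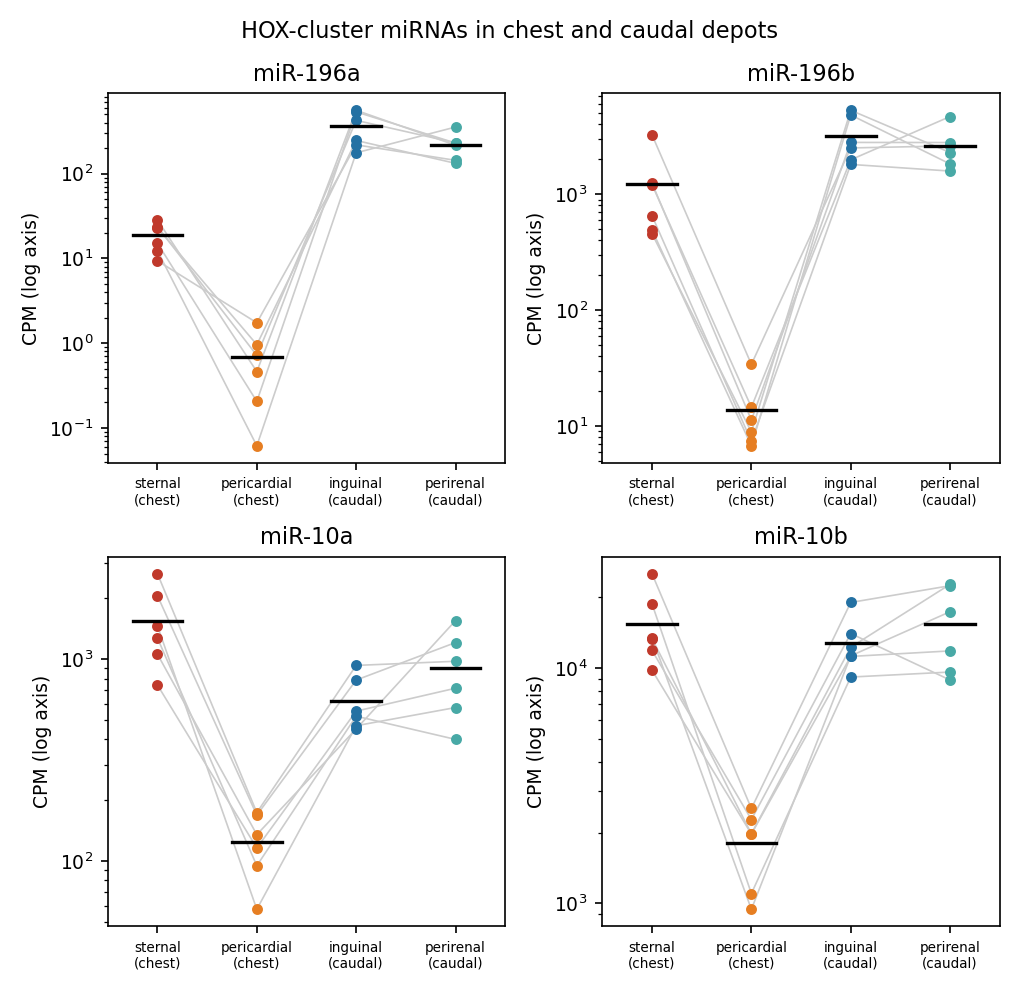
Levels of miR-196a, miR-196b, miR-10a and miR-10b in CPM (log axis) in sternal, pericardial, inguinal and perirenal fat, 6 libraries each; points are libraries, grey lines join the libraries of 1 animal and black bars are depot means. Pericardial libraries are the lowest of the 4 depots in each panel, and in miR-196a alone the 6 sternal libraries (9.38 to 28.4 CPM) also lie below every caudal library.

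The miR-10 pair was low in pericardial fat and not in sternal fat. miR-10b was at 945 to 2531 CPM in pericardial libraries (median 1974) and at 8880.3 to 22634 CPM in perirenal libraries (median 14558). In the subcutaneous layer sternal libraries held 9770.3 to 25082 CPM (median 13369) and inguinal libraries 9141 to 18951 CPM (median 11743). The visceral depots were apart and the subcutaneous ones overlapped almost fully. The chest to caudal difference of −1.41 ± 0.18 (adjusted p = 6.34e-05, lower in 6 of 6 animals) was thus the mean of −3.09 ± 0.28 in the visceral and 0.27 ± 0.26 (adjusted p = 0.729) in the subcutaneous layer, and the layers differed by 3.35 ± 0.37. With counts summed per animal and side, where the abundant depot weighs more, the value was −0.92 (adjusted p = 0.0541).

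miR-10a pointed in opposite directions in the layers. Sternal libraries held 744 to 2649.6 CPM (median 1366) and inguinal libraries 450.7 to 931 CPM (median 537). Pericardial libraries held 57.6 to 174 CPM (median 125) and perirenal libraries 400.3 to 1553 CPM (median 847). Sternal fat was the high and pericardial fat the low depot, so that the 2 chest depots sat at both ends with the caudal depots between them. Between sternal and inguinal fat the difference was 1.29 ± 0.28 (adjusted p = 0.0595, higher in 6 of 6 animals), between pericardial and perirenal fat −2.86 ± 0.30 (lower in 6 of 6 animals), and the layers differed by 4.15 ± 0.41. The chest to caudal value, −0.79 ± 0.20 (adjusted p = 0.0464), had the highest adjusted p of the 10 calls. It was lost without any 1 animal and without any 1 of 15 of the 24 libraries, at −0.89 to −0.64 over the 30 omissions. Mean CPM went the other way, 832 in chest and 762 in caudal libraries. Taken as 2 groups of 12 libraries the difference was 0.06 (adjusted p = 0.977), with counts summed per animal and side it was −0.12 (adjusted p = 0.846), and without SSAT1, PRAT2 and PRAT6 together it was −0.70 (adjusted p = 0.105).

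miR-615, the remaining HOX-cluster miRNA of the list, did not pass the filter. It was at 0 in 5 of 6 pericardial libraries and at 0.275 CPM in the sixth, at 0 to 1.57 CPM in perirenal, 0.465 to 1.29 CPM in sternal and 0.398 to 2.23 CPM in inguinal libraries. Of the 4 members tested, 4 were called lower in the chest, against 1.45% of all features, and their median difference was −3.08 against −0.04 over all. The count was 3 of 4 without animals as blocks, with RLE factors or with the letter as a covariate. It was 1 of 4 with 2 groups of 12 libraries, and 2 of 2 with the miR-196 and miR-10 pairs summed. In the visceral layer 4 of 4 were lower (3.07% of all features), and in the subcutaneous layer 1 of 4 (0.162% of all features), with values from −4.26 to 1.29. miR-196a, with 1 to 26 counts in pericardial libraries, passed the filter through its other depots, and the other 3 had at least 102 counts in every library. Summed over the list, pericardial libraries held 1126 to 2712 CPM, against 13787 to 28252 CPM in sternal, 11767 to 25271 CPM in inguinal and 11008 to 26706 CPM in perirenal libraries, a level that is mostly miR-10b.

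Back (BSAT) and omental fat (OAT), which belong to neither side, place these levels along the series when all 36 libraries are scaled together. For miR-196a the order by mean CPM was inguinal (359.9), perirenal (216.02), back (124.3), sternal (18.004), omental (7.82) and pericardial (0.728). Of these neighbours only back fat (28.4 to 209 CPM) and sternal fat (8.96 to 26.2 CPM) did not overlap. For miR-196b the order was the same, and the gap without overlap lay one step lower, between sternal fat (428 to 3082 CPM) and omental fat (5.48 to 401 CPM). For miR-10b and miR-10a pericardial fat alone stood apart at the low end. Its highest library held 2397 CPM of miR-10b, below the lowest omental library at 2565 CPM, and 176 CPM of miR-10a, below the lowest omental library at 275 CPM.

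Outside the HOX clusters miR-6715 and miR-3431 were the lower miRNAs with at least 10 CPM. Sternal libraries held 1.86 to 48.1 CPM of miR-6715 (median 20.6) and pericardial libraries 12.03 to 40.2 CPM (median 15.6), against 15.1 to 129.7 CPM in inguinal (median 86.6) and 20.8 to 513 CPM in perirenal libraries (median 137.3). The sides overlapped in both layers, through IAT1 and IAT5 and through PRAT6 at the low end of the caudal depots. The difference was −2.36 ± 0.51 (adjusted p = 0.0195, lower in 6 of 6 animals), with −1.54 ± 0.70 in the subcutaneous and −3.19 ± 0.74 in the visceral layer. The layers did not differ past the threshold (1.66 ± 0.95, adjusted p = 0.439). The call was lost without IAT3 (−2.19), IAT6 (−2.18) or PRAT1 (−2.28) and without animal 2, 4 or 5 (−2.45 to −2.04).

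miR-3431 was the most even of the lower miRNAs over the layers. It was at 131 to 485.4 CPM in sternal (median 279.6) and 137.4 to 271 CPM in pericardial libraries (median 214.9), against 403 to 1172 CPM in inguinal (median 516) and 244 to 621 CPM in perirenal libraries (median 400.5). SSAT3 and SSAT6 reached the inguinal range, and PRAT2 was the perirenal library inside the pericardial range. The difference was −1.03 ± 0.24 (adjusted p = 0.0282, lower in 6 of 6 animals), with −1.04 ± 0.33 in the subcutaneous and −1.02 ± 0.33 in the visceral layer, neither called alone (adjusted p = 0.145 and 0.0952). The layer difference was −0.02 ± 0.46 (adjusted p = 0.993). The call was lost without any 1 of SSAT4, SSAT5, IAT3, PCAT1, PCAT3, PCAT4, PCAT5 or PRAT1, at −1.06 to −0.93, and without animal 1, 4 or 5, at −1.03 to −0.79.

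The remaining calls were of lower abundance. The candidate locus NC_059158.1_6728 was at 1.57 to 5.49 CPM in sternal, 0.864 to 3.75 CPM in pericardial, 1.93 to 25.1 CPM in inguinal and 6.90 to 16.6 CPM in perirenal libraries. Its difference was −1.43 ± 0.29 (adjusted p = 0.0143, lower in 6 of 6 animals), and pericardial and perirenal libraries did not overlap. The call was lost without animal 4 (−1.40) or 5 (−1.41). miR-885 was at 0.368 to 2.23 CPM in sternal, 0.618 to 2.55 CPM in pericardial, 0.485 to 4.53 CPM in inguinal and 2.82 to 10.5 CPM in perirenal libraries, a difference of −1.56 ± 0.34 (adjusted p = 0.0195). Perirenal fat had the highest mean of the 4 depots, and the other 3 depots overlapped. Perirenal and inguinal fat overlapped too, with IAT3 (4.53 CPM) and IAT5 (3.57 CPM) above PRAT6 (2.82 CPM). With all 36 libraries scaled together omental fat averaged 5.32 CPM, against 6.68 CPM in perirenal fat. miR-12003 was at 0.464 to 2.57 CPM in sternal, 0.824 to 1.605 CPM in pericardial, 1.25 to 3.94 CPM in inguinal and 2.28 to 4.56 CPM in perirenal libraries, a difference of −1.01 ± 0.23 (adjusted p = 0.0256). Both were lower in 6 of 6 animals, and both were apart in the visceral and overlapping in the subcutaneous layer.

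miR-105a, the 1 feature called higher in the chest, was close to the limit of detection. Sternal libraries held 0.305 to 5.04 CPM (median 1.08) and pericardial libraries 0.0661 to 3.02 CPM (median 0.811), from 1 to 65 counts. Inguinal libraries held 0 to 1.19 CPM (median 0.0446), with 3 libraries at 0, and perirenal libraries 0.0787 to 0.335 CPM (median 0.193), from 0 to 16 counts over both depots. The sides overlapped, and the difference was 2.47 ± 0.59 (adjusted p = 0.0343, higher in 6 of 6 animals). Perirenal libraries held at most 5 counts, so miR-105a passed the filter on low counts mainly through chest libraries, where it was high. miR-885, miR-12003 and miR-105a averaged under 10 CPM on both sides and are named because the calls were few, after their values were seen. miR-885 lost its call without IAT3 (−1.43), PRAT1 (−1.49) or animal 2 or 5. Leaving out 1 library ended the call of miR-12003 in 10 of 24 cases and leaving out 1 animal in 5 of 6 (−1.13 to −0.91 over all 30 omissions), and for miR-105a these were 12 of 24 and 5 of 6 (1.99 to 2.94).

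**Figure D2:**
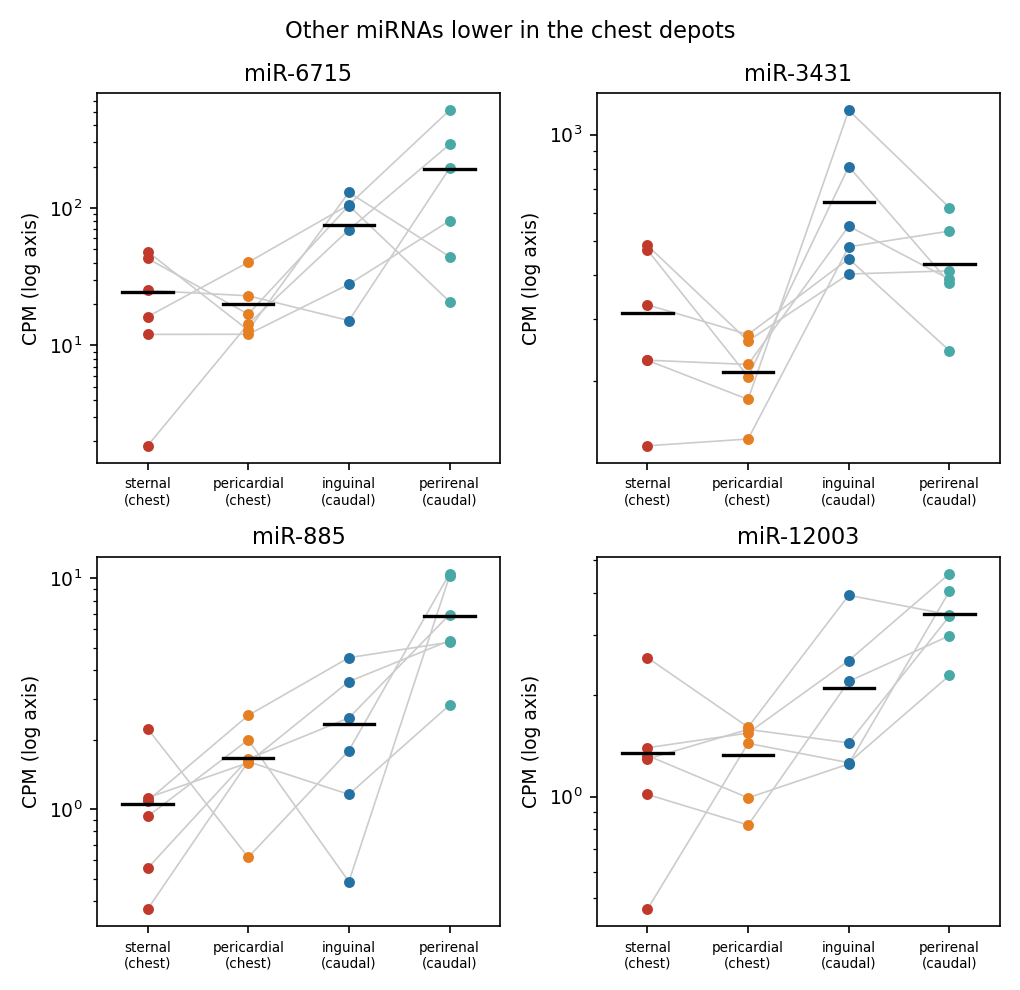
Levels of miR-6715, miR-3431, miR-885 and miR-12003 in CPM (log axis) in sternal, pericardial, inguinal and perirenal fat; points are libraries, 6 per depot, grey lines join libraries of 1 animal and black bars are depot means. Perirenal libraries of miR-885 (2.82 to 10.5 CPM) lie above all pericardial ones (0.618 to 2.55 CPM), while for miR-6715 the depots overlap in both layers.

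The 2 layers of the comparison were unlike. Between pericardial and perirenal fat 24 features were called (3.88%), 19 lower (3.07%) and 5 higher (0.808%) in the pericardial depot. Between sternal and inguinal fat 1 was called (0.162%), with 77 at an unadjusted p under 0.05, although DESeq2 called 24 and limma 12 there. Leaving out 1 animal or library moved these counts to 12 to 40 in the visceral layer, 12 without animal 5 and 40 without IAT6, and to 1 to 14 in the subcutaneous layer, 14 without animal 6 and above 1 in 14 of the 30 omissions. Libraries of the compared depots did not overlap for 26 features in the visceral (4.2%) and 4 in the subcutaneous layer (0.646%). Among the 10 chest to caudal calls these numbers were 7 and 1. The difference of the layers itself was called for 24 features (3.88%), 6 above 0 (0.969%) and 18 below 0 (2.91%), and for 14 without animal 5. In 22 of the 24 the layers had opposite signs. In 18 of these 22 pericardial fat was above perirenal fat while sternal fat was below inguinal fat. Calls of the layer difference are selected towards opposite signs. A call below 0 with opposite signs must have sternal below inguinal and pericardial above perirenal fat. These counts are therefore no separate evidence that the layers oppose each other. The share of opposite signs over all features was not counted. With scaling by library totals alone the share of higher calls between pericardial and perirenal fat was 48.5% in place of 20.8%, and 62.3% with limma on RPM. The median of all features moved from −0.07 to 0.10 there and from 0.13 to −0.22 for the layer difference.

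**Figure D3:**
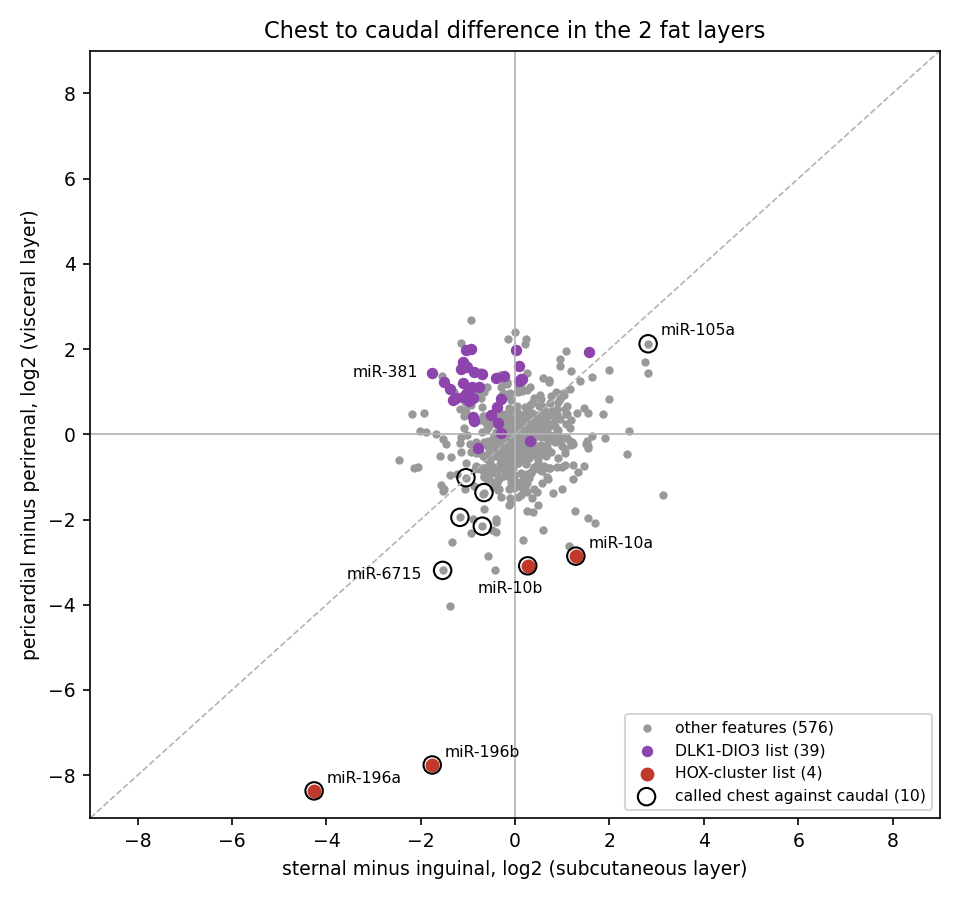
Fitted log2 difference of sternal minus inguinal fat (horizontal) against that of pericardial minus perirenal fat (vertical) for the 619 features tested; the dashed line marks equal differences, red points are the 4 HOX-cluster miRNAs, purple points the 39 tested DLK1-DIO3 miRNAs, and circles the 10 features called between chest and caudal fat. Of the 39 purple points 31 lie in the upper left quadrant, and the share of all features there was not counted. The medians of all 39 are −0.88 on the horizontal and 1.10 on the vertical axis, against −0.0005 and −0.07 over all 619.

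miRNAs of the imprinted DLK1-DIO3 locus made up most of the opposite pattern. This locus, expressed from the maternal chromosome for its non-coding RNAs, holds a large cluster of miRNA genes that are made together, and its protein-coding gene DLK1 is an inhibitor of fat cell formation. Of 64 precursors listed, 57 features were in the table and 39 were tested. Between chest and caudal fat as a whole none of the 39 was called by edgeR (1.62% of all features), with 3 at an unadjusted p under 0.05 and none called by DESeq2 or limma, and the median was 0.08. The layer difference was called below 0 in 14 of 39, against 2.91% of all features, and 38 of 39 values lay below 0, with a median of −1.87 against 0.13 over all. This count was 6 without animal 5, 8 or 9 without animal 1 or 4 or without any 1 of SSAT4, SSAT5, IAT2, IAT5, PCAT4, PCAT6, PRAT5 or PRAT6, and 16 of 40 among letter B libraries alone. It was 10 without animal 3 or without animals as blocks. It rose to 18 without IAT6, 19 without animal 2 or PCAT2 and 20 without PRAT2. DESeq2 called 20 and limma 22 of these layer differences below 0. Sternal fat was below inguinal fat in 32 of 39 (median −0.88, none called, 16 at an unadjusted p under 0.05 against 12.4% of all features, 7 called by DESeq2 and 6 by limma), and pericardial fat above perirenal fat in 37 of 39 (median 1.10, 4 called, against 0.808% of all features, with 24 at an unadjusted p under 0.05 against 20.4% of all). DESeq2 called 17 and limma 20 of the 39 higher in pericardial fat, and edgeR without animals as blocks 1. Leaving out 1 animal or library moved the count of 4 to 11 (animal 2), 2 (animal 3), 10 (SSAT3 or IAT6), 9 (PCAT2) or 7 (SSAT5). Among letter B libraries 4 of 40 were called there (median 1.63) and among letter A libraries 0 of 42 (median 0.40). The sign of these 3 medians was the same with RLE factors and with library totals alone.

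miR-127, the most abundant member and antisense to the imprinted gene RTL1, was at 4386 to 17201 CPM in sternal (median 12664) and 24636 to 46431 CPM in pericardial libraries (median 41403). Inguinal libraries held 12521 to 44050.4 CPM (median 36049.9) and perirenal libraries 9442 to 24593 CPM (median 17588). The depots were apart in the visceral layer, and in the subcutaneous layer IAT6 alone fell into the sternal range. Sternal less inguinal fat was −1.51 ± 0.39 (adjusted p = 0.0680), pericardial less perirenal fat 1.23 ± 0.38 (adjusted p = 0.0689), and the layer difference −2.74 ± 0.53 (adjusted p = 0.00346). The chest to caudal mean of the 2 was −0.14 ± 0.27.

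miR-381 was at 4.37 to 12.2 CPM in sternal (median 7.16), 38.4 to 60.4 CPM in pericardial (median 46.6), 4.55 to 49.3 CPM in inguinal (median 29.9) and 6.27 to 36.8 CPM in perirenal libraries (median 16.5). Pericardial libraries lay above all perirenal ones, and IAT6 was the only inguinal library in the sternal range. Its layer difference of −3.20 ± 0.58 (adjusted p = 0.00175) was the largest in size of the list. miR-411c-5p was at 16.9 to 47.7 CPM in sternal and 75.1 to 178 CPM in pericardial libraries, against 34.9 to 131 CPM in inguinal and 21.3 to 78.8 CPM in perirenal libraries. It was lower in sternal than in inguinal fat and higher in pericardial than in perirenal fat in 6 of 6 animals, and the layer difference was −2.68 ± 0.41 (adjusted p = 3.26e-04). miR-369-3p followed the same order of depots in 6 of 6 animals, at 2.67 to 9.50 CPM in sternal, 13.9 to 27.6 CPM in pericardial, 5.26 to 26.2 CPM in inguinal and 3.24 to 14.9 CPM in perirenal libraries (layer difference −2.81 ± 0.46, adjusted p = 8.00e-04).

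miR-655 and miR-370 had layer differences of −3.01 ± 0.62 (adjusted p = 0.00501) and −2.93 ± 0.75 (adjusted p = 0.0261). Pericardial libraries held 7.90 to 40.9 CPM of miR-655 and 10.3 to 22.0 CPM of miR-370, against 1.98 to 14.7 CPM and 1.10 to 22.2 CPM in perirenal libraries, with PRAT2 the highest for both. Sternal libraries held 1.30 to 12.7 CPM and 0.611 to 2.77 CPM, and inguinal libraries 4.01 to 19.4 CPM and 0.872 to 8.76 CPM. Both had their highest mean in pericardial fat, which overlapped perirenal fat. The other 8 called members were miR-493, miR-380-3p, miR-411a, miR-376b, miR-487b, miR-382, miR-409b and miR-154b, at −2.45 to −1.95. Without animals as blocks miR-655 (−2.74, adjusted p = 0.0868) and miR-370 (−2.46, adjusted p = 0.167) were not called. Within letter B miR-655 was not called either (−2.91, adjusted p = 0.0700). miR-370 lost its call without any 1 of 10 of the 24 libraries and without animal 1, 3, 5 or 6 (−3.36 to −2.49 over the 30 omissions).

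**Figure D4:**
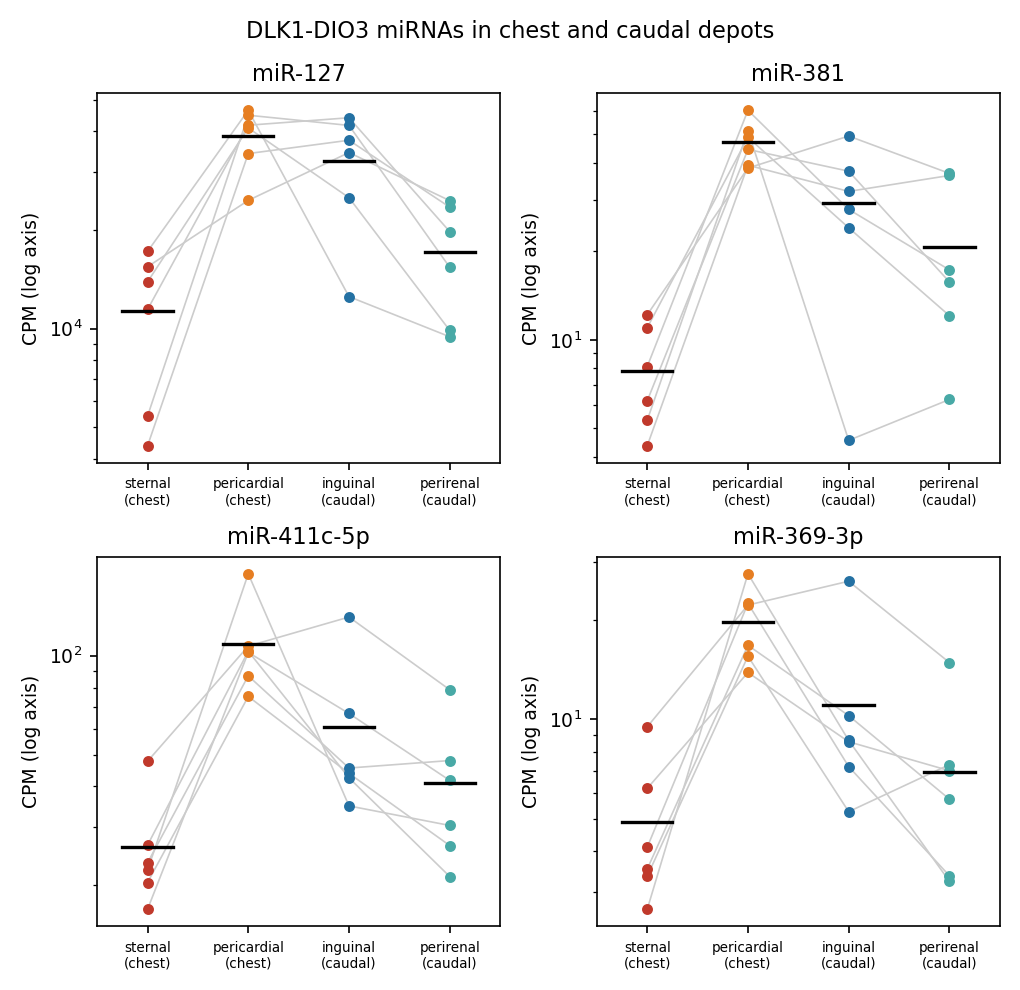
Levels of the DLK1-DIO3 miRNAs miR-127, miR-381, miR-411c-5p and miR-369-3p in CPM (log axis) in sternal, pericardial, inguinal and perirenal fat; points are libraries, 6 per depot, grey lines join libraries of 1 animal and black bars are depot means. In each panel the chest depots are the lowest and the highest mean, sternal and pericardial, with the caudal depots between them.

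Of the remaining 6 layer calls outside the HOX clusters and the DLK1-DIO3 list, 4 were candidate loci and the other two were miR-3578 (−3.62 ± 0.63) and miR-1949 (2.83 ± 0.69), both under 10 CPM in every depot mean and named after their values were seen. The locus NC_059159.1_8293 had the pattern of miR-10a: 3066 to 8375 CPM in sternal (median 5454), 249 to 754 CPM in pericardial (median 653), 1614 to 3786 CPM in inguinal (median 2707) and 1511 to 6098 CPM in perirenal libraries (median 3431). All pericardial libraries lay below all others. Its layer difference was 3.76 ± 0.40, and its chest to caudal difference of −0.73 ± 0.19 missed the threshold (adjusted p = 0.0573). The locus NC_059176.1_40495 went the opposite way, at 6296 to 13921 CPM in sternal, 17131 to 28659 CPM in pericardial, 10112.5 to 35926 CPM in inguinal and 7308 to 21947 CPM in perirenal libraries. Its layer difference was −2.25 ± 0.46 (adjusted p = 0.00495).

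The most abundant features differed little between the sides. The let-7 family promotes differentiation in many tissues, and its member let-7c had medians of 77031 CPM in sternal, 52727 CPM in pericardial, 72695 CPM in inguinal and 35124 CPM in perirenal fat, a difference of 0.28 ± 0.22 (adjusted p = 0.544). let-7i was 0.40 ± 0.14 higher in the chest (adjusted p = 0.181, 5 of 6 animals), with 49615 to 114578 CPM in sternal libraries and 26566 to 58190.5 CPM in the other 3 depots. The candidate locus NC_059159.1_9569 differed by 0.11 ± 0.25. miR-26a (−0.77 ± 0.69) and miR-26c (0.22 ± 0.84) varied widely within each depot, from 6345 to 134140 CPM and from 2228 to 128911 CPM, and libraries high in one were low in the other. Their reads can be divided by counting, and the sum of the pair differed by −0.03 ± 0.10 (adjusted p = 0.929). None of the 5 was called, and their sides overlapped.

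Apart from the HOX-cluster list, the lists of miRNAs by function gave 1 call between chest and caudal fat, miR-196a itself in the brown and beige fat list (1 of 13, 7.69%, against 1.62% of all features). The pro-adipogenic list had 0 of 18 called and 5 at an unadjusted p under 0.05 (median −0.07), and the anti-adipogenic list 0 of 16 and 4 (median −0.03), where 17.6% of all features had such a p. All 4 tested members of the miR-148 and miR-152 family, in which miR-148a is known to repress a DNA methyltransferase, were above 0, at 0.60 to 1.41 (median 0.92). Each had an unadjusted p under 0.05 and none was called (adjusted p = 0.115 to 0.216). Their summed level was 563 to 6983 CPM in sternal and 844 to 1932 CPM in pericardial libraries, against 500.2 to 2217 CPM in inguinal and 276 to 778 CPM in perirenal libraries, with SSAT1 the highest. In the visceral layer alone miR-224 of the anti-adipogenic list (−1.21 ± 0.30, adjusted p = 0.0193) and miR-92a of the miR-17-92 list (−1.28 ± 0.34, adjusted p = 0.0331) were lower in pericardial fat, both named after their values were seen. The let-7, miR-29, miR-30, miR-221 and miR-222, miR-424 and miR-503, and miR-23, miR-24 and miR-27 lists had 0 called in each of the 4 comparisons. Of all features 1.62% were called between the sides, 3.88% for the layer difference, 0.162% in the subcutaneous and 3.88% in the visceral layer. With 2 to 10 members tested per list, 0 calls is close to these shares and sets none of these lists apart.

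Markers of other tissues were unequal over the libraries. The muscle list, with 6 of 7 features tested and none called, summed to 37.6 to 59.8 CPM in sternal, 79.1 to 266 CPM in pericardial, 43.8 to 139.9 CPM in inguinal and 57.9 to 1245 CPM in perirenal libraries, with PRAT6 the highest. Within the list miR-208a was at 0 in 17 and miR-208b at 0 in 14 of the 24 libraries, with highest values of 0.299 and 1.53 CPM. The other members were at 14.4 to 1161 CPM (miR-1), 1.32 to 160 CPM (miR-206) and 6.29 to 40.9 CPM (miR-499). miR-133a reached 17.1 CPM and miR-133b 18.5 CPM. Whether the signal came from heart or skeletal muscle was not tested. The epithelial list, with 7 of 10 features tested, summed to 11.7 to 53.1 CPM in sternal, 20.5 to 505 CPM in pericardial, 26.2 to 112 CPM in inguinal and 43.7 to 2678 CPM in perirenal libraries, with PRAT2 the highest. The median sum was 274 CPM in pericardial, 118 CPM in perirenal, 47.2 CPM in inguinal and 18.5 CPM in sternal libraries. The chest thus held both the highest and the lowest depot by median. All 7 fitted values lay below 0 for chest minus caudal (median −0.70, none called, 1 at an unadjusted p under 0.05). miR-182 and miR-200b were at 0 in 11 and 10 libraries. The 3 erythroid miRNAs were also lower in the chest (median −0.58, none called) and summed highest in perirenal fat, at 40178 to 104678 CPM against 7923 to 80292 CPM in the other 3 depots. None of the leukocyte, endothelial, stromal, kidney and gut, neural, or liver and pancreas markers was called between the sides, where 1.62% of all features were. An unadjusted p under 0.05 was had by 2 of 8 leukocyte, 0 of 2 endothelial, 3 of 7 stromal and 2 of 5 kidney and gut members. It was had by 1 of 8 neural and 1 of 2 liver and pancreas members, against 17.6% of all features. Lists this small cannot show that the cell types were even between the sides. The table holds no protein-coding marker of adipose tissue, so that label was not checked. Without SSAT1, PRAT2 and PRAT6 (SSAT1 held the highest summed miR-30 family) 8 features were called between the sides, 6 of them among the 10, with miR-196a at −6.10, miR-196b at −4.61 and miR-10b at −1.42. In that setting 27 layer differences were called. Any part of these markers in the remaining calls was not tested.

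**Figure D5:**
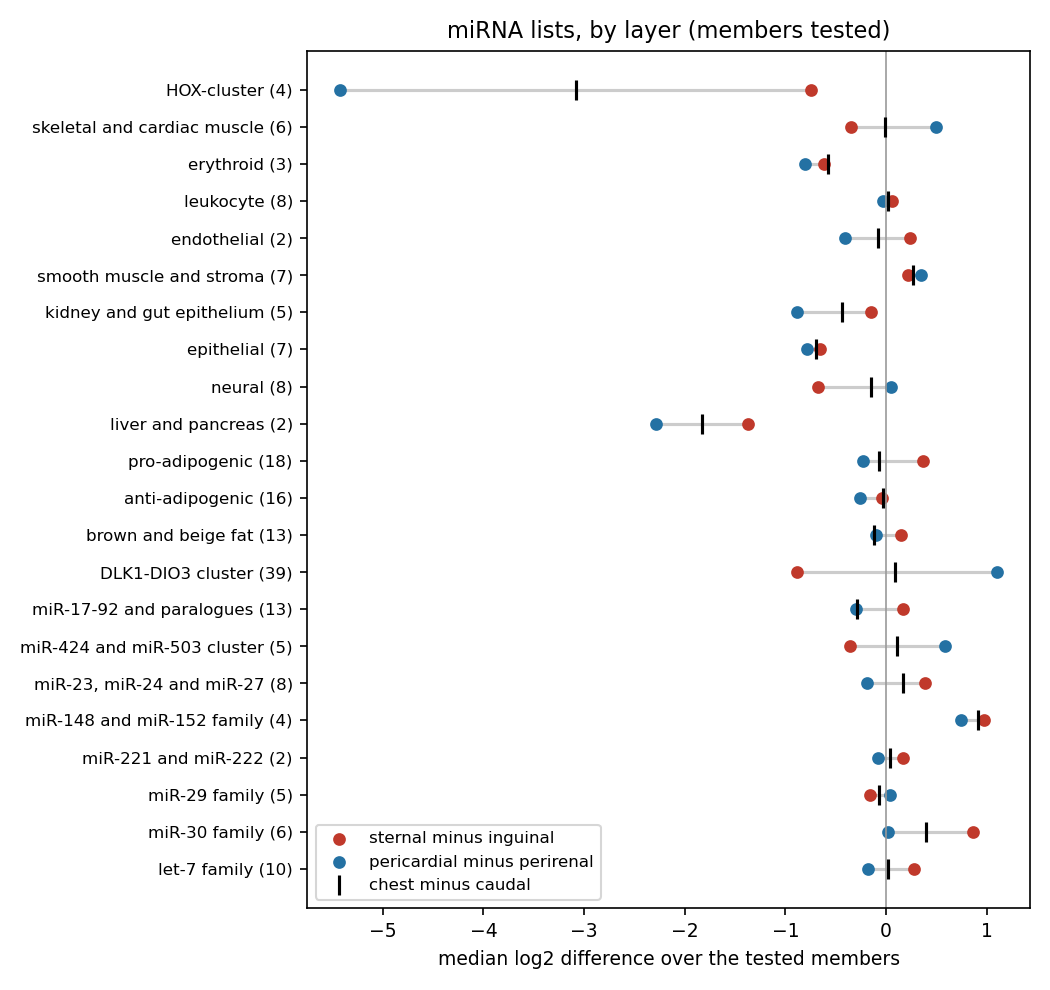
Median fitted log2 difference over the tested members of each of 22 miRNA lists (number tested in brackets); red points are sternal minus inguinal, blue points pericardial minus perirenal and black ticks chest minus caudal. The HOX-cluster list has medians of −0.74, −5.42 and −3.08 in that order, and the DLK1-DIO3 list has its 2 layers on opposite sides of 0.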

How the data were processed

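Per the labels' protocols, an RNeasy Lipid Tissue Mini Kit gave the RNA from which small RNA libraries were made. The authors deposited, per the file headers, 1 table of raw counts and 1 of RPM (reads scaled to the library total), with miRNA names and candidate loci together. Each deposited RPM value equalled the count over the library total times 1e+06 within 4.79e-06. The submitters' processing notes name DESeq2 1.24.0, and no aligner, caller or build is given in the sources used here. One row without a name held 0 counts and stayed out.

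The counts of the 24 libraries were fitted with edgeR 4.0.16 (R 4.3.3): TMM factors, filterByExpr with a minimum count of 10, and robust quasi-likelihood tests with depot and animal as terms (15 residual degrees of freedom, biological coefficient of variation 0.597). SE is the absolute log2 difference over the square root of F. Every adjusted p is Benjamini-Hochberg over all 619 features, called at 0.05. Log2 CPM uses a prior count of 2. Sample titles number the animals 1 to 6 in every depot, so the numbers pair libraries of the same animal: deviations from depot means correlated at 0.205 on average within animals and −0.04 between them (27 of 36 pairs above 0.1). No pair of libraries was alike (smallest chi-square per degree of freedom 910). The labels number 1 sample per animal and depot, so the spread is between animals.

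Named were called miRNAs with at least 10 CPM on the higher side and 5 of 6 animals in 1 direction (up to 12 a direction), up to 2 candidate loci a direction, the tested HOX-cluster miRNAs, the 5 most abundant features, 8 layer-difference miRNAs and up to 4 called members of a list. The members, lists and rules were chosen with earlier results of these data known, so their directions are not independent evidence. On simulated counts (601 features tested) the chest to caudal test recovered 20.3% of features changed 1.5-fold, 43.4% of those changed 2-fold and 95.4% of those changed 4-fold, with 3 of 409 unchanged features called. The layer difference (605 tested) recovered 3.7% of 2-fold and 37.8% of 4-fold changes. Alternatives were limma 3.58.1 on log2(RPM + 1), DESeq2 1.42.0, other scalings, filters, library sets and designs.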

Additional observations from a re-analysis of the deposited data

Results flagged for a closer look

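The gap between chest and caudal fat differed between the subcutaneous and the visceral layer, by a test of the difference itself, for the 12 features whose values by depot are described above and for others given there by their difference alone. It was more positive between sternal and inguinal than between pericardial and perirenal fat for miR-196b (6.00), miR-10a (4.15), miR-196a (4.11), NC_059159.1_8293 (3.76) and miR-10b (3.35), all on the log2 scale. It was more negative for miR-381 (−3.20), miR-655 (−3.01), miR-370 (−2.93), miR-369-3p (−2.81), miR-127 (−2.74), miR-411c-5p (−2.68) and NC_059176.1_40495 (−2.25). The 2 candidate loci were chosen after their values were seen.

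In 3 of 92 groups of 6 libraries 1 library lay far from the others, where chance gives about 1 in 20. miR-381 was at 4.55 CPM in IAT6, and the other inguinal libraries held 24.1 to 49.3 CPM. NC_059158.1_6728 was at 0.864 CPM in PCAT6 against 2.55 to 3.75 CPM in the other pericardial libraries. miR-885 was at 0.618 CPM in PCAT1 against 1.59 to 2.55 CPM in the others.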

How the results depend on the processing

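miR-196a was called lower in the chest under all 12 alternatives (−6.52 to −4.95). Without the replicate block, that is without pairing libraries by animal, 7 features were called in place of 10 between the sides (all 7 among the 10), 21 in place of 24 layer differences, 17 in place of 24 between pericardial and perirenal fat, and 5 in place of 1 between sternal and inguinal fat. miR-10a (−0.77, adjusted p = 0.121), miR-105a (2.49, 0.0558) and miR-12003 (−1.01, 0.0558) then lost their calls. Counts summed per animal and side also ended those of miR-10a (−0.12, 0.846), miR-105a (2.48, 0.156), miR-12003 (−1.11, 0.121), miR-3431 (−1.06, 0.175) and miR-10b (−0.92, 0.0541).

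Other settings moved the counts further. Between the sides there were 32 calls with no filter, 3 with letter B alone, 17 with limma, 34 with DESeq2, 5 with 2 groups of 12 libraries and 6 with counts summed per animal and side. Layer differences were 38 with no filter, 40 with limma and 45 with DESeq2. Between sternal and inguinal fat there were 12 calls with library totals alone, 25 with no filter, 11 at a mean of at least 10 CPM, 2 with all 36 libraries, 2 with the letter as a covariate, 3 with letter B alone, 12 with limma, 24 with DESeq2, 0 with near-identical members summed and 7 without SSAT1, PRAT2 and PRAT6, an omission chosen after seeing the data. Between pericardial and perirenal fat there were 43 with no filter, 13 with letter B alone, 1 with letter A alone and no replicate block (also chosen after seeing the data), 53 with limma and 76 with DESeq2. Leaving out 1 animal or library gave 3 to 21, 14 to 33, 1 to 14 and 12 to 40 calls in this order. The cause was not tested.

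miR-10a reversed with 2 groups of 12 libraries (0.0552), and let-7c (−0.0751), miR-26a (0.0635) and miR-26c (−0.81) with letter B alone, of which only miR-10a had been called. Over the omissions NC_059159.1_9569 ran from −0.0614 to 0.29 and miR-26c from −0.37 to 0.89. With 2 groups of 12 libraries miR-196b (−2.61, adjusted p = 0.249) and miR-10b (−0.76, 0.441) lost their calls. Letter B alone ended 7 calls, among them miR-6715 (−1.58), miR-3431 (−0.93), miR-885 (−1.10) and NC_059158.1_6728 (−1.41). Of 1148 alternative values for named features 1015 kept direction and call, 11 changed sign and the rest lost a call. miR-105a, miR-12003 and miR-885 rest on few counts, and a 2-fold layer difference was mostly below what 6 animals could show.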
